A study of Mus musculus with 4 samples.

Results

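The homeobox genes Msx1, Msx2, Pitx1, Isl1, Lhx8 and Barx2 were examined for open chromatin in the surface ectoderm of the mouse face. They are grouped here as regulators of the oral and facial ectoderm, and whether each acts in this tissue was not tested. Their rows were those of the deposited peak lists whose centre lay within 100 kb of the start site of 1 of the 6 genes, and they numbered 87 of 68570, namely 84 of 65467 control peaks and 3 of 3103 AP-2-dependent regions. A control peak is an accessible interval called from both control libraries together, and an AP-2-dependent region is an interval called more accessible in the combined control libraries than in the combined mutant libraries. The lists hold no read counts and no value per library, so depth and the spread between replicates are unknown. No test between groups could be made. Values of the 2 lists come from different calls and are not comparable.

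The study asked what the AP-2 transcription factors encoded by Tfap2a and Tfap2b do in the facial ectoderm. ATAC-seq, in which a transposase cuts accessible DNA, was run at E11.5 on ectoderm peeled from the facial prominences, with 2 libraries from control and 2 from EDKO embryos. EDKO embryos carried Crect with Tfap2a flox/flox and Tfap2b flox/flox, and controls were littermates without Crect that were Tfap2a flox/+ and Tfap2b flox/+, so floxed alleles were present in both groups. Crect is a Cre transgene driven by an intronic enhancer of Tfap2a and active across the ectoderm, it can recombine more broadly and its sires were screened for this, and the ectoderm of all prominences was pooled, so oral and aboral ectoderm were not separated. Control peaks lay over the start sites of 12 of 12 surface ectoderm markers, with summit −log10 p from 6.77 to 13.9, of 6 of 9 mesenchyme and neural crest markers, from 3.27 to 7.96, of 1 of 4 endothelial markers (Kdr, 9.01) and of 0 of 4 blood markers. Of all protein-coding genes, 61.6% had a control peak over the start site. The part that mesenchymal cells had in any peak described here was not tested.

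The 6 genes encode homeodomain proteins, which bind short AT-rich DNA and set regional identity. Msx1 and Msx2 are muscle segment homeobox repressors downstream of BMP signals in the face, teeth and limbs, and Pitx1 is a paired-type activator of the oral ectoderm, the pituitary primordium and the hindlimb. Isl1 and Lhx8 are LIM homeodomain factors, of which Isl1 marks early oral epithelium and Lhx8 is best known in the mesenchyme of the jaw, palate and teeth. Barx2 is a Bar-class factor of ectodermal and other epithelia. AP-2 proteins bind as dimers to GC-rich palindromes, and the strings searched here on both strands were GCCNNNGGC, the same palindrome with a spacer of 4 bases, GCCNNNGGG and CCCNNNGGG. The last pair was added after the data had been seen, and a base run can match more than 1 of them because they overlap.

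The 3 AP-2-dependent regions carry the contrast between the genotypes, and 300 bases of each, on the plus strand of GRCm38 with the summit inside, are shown with every AP-2 string in capitals. The first lies downstream of Msx1, the second upstream of Msx1 and the third upstream of Barx2.
Msx1 downstream region, chr5:37817201-37817500: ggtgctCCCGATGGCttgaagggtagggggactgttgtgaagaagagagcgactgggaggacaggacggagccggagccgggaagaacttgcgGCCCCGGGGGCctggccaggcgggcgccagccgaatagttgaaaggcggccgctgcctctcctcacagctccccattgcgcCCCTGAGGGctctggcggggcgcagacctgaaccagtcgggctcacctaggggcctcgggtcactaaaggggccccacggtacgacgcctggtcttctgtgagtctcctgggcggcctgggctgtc
Msx1 upstream region, chr5:37902864-37903163: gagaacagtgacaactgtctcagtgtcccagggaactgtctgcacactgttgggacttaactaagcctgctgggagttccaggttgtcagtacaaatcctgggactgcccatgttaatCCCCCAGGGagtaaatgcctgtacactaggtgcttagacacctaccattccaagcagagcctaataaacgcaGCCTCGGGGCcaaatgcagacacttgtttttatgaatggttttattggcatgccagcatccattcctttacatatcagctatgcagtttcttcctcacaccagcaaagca
Barx2 upstream region, chr9:32011502-32011801: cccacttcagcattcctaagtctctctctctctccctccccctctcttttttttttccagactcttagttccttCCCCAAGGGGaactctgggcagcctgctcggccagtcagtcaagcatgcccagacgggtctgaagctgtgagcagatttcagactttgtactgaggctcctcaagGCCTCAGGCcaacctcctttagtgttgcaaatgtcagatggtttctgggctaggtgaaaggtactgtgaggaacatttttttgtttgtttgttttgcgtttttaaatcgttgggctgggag

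For contrast, the promoters of Msx1 and Isl1 had strong control peaks and no region. They are given as the 250 bases before the RefSeq start on GRCm38.p6, on the minus strand, which is the coding strand of both genes. Promoter sequences of 4 of the 6 genes (Msx1, Msx2, Isl1 and Lhx8) were matched in the RefSeq table.
Msx1 promoter, chr5:37824586-37824835: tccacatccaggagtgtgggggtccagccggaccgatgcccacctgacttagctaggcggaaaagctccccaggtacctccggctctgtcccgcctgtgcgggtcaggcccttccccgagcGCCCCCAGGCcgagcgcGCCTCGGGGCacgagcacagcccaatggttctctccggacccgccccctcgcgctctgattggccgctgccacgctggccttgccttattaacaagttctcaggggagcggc
Isl1 promoter, chr13:116309689-116309938: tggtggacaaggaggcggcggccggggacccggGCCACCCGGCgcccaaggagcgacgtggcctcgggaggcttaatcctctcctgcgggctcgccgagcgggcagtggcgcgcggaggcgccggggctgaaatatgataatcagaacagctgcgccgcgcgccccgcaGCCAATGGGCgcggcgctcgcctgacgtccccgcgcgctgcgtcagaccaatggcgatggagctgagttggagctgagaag

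The strongest control peaks of Msx2, Isl1 and Barx2 that lay more than 5 kb from a start site and held no region are given as the 100 bases on each side of the summit, on the plus strand. The Isl1 stretch has a match to GCCNNNGGG, in capitals, and those of Msx2 and Barx2 have no AP-2 string. The corresponding peaks of Pitx1 and Lhx8, not printed, also matched GCCNNNGGG within 100 bp of the summit, and that of Msx1 matched none of the strings.
Msx2 distal peak, chr13:53554253-53554453: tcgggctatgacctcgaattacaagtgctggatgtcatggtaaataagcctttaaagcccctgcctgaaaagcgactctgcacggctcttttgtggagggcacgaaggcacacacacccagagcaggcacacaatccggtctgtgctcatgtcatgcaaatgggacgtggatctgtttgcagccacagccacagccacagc
Isl1 distal peak, chr13:116297430-116297630: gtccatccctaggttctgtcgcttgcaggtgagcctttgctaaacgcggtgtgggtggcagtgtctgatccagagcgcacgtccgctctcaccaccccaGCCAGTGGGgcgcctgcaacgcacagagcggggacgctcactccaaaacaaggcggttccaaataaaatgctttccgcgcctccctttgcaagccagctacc
Barx2 distal peak, chr9:31839360-31839560: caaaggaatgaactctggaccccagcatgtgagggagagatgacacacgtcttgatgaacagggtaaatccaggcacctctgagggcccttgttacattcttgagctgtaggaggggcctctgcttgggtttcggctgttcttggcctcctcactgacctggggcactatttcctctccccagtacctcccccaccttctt

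Across the 84 control peaks, 3 overlapped an AP-2-dependent region by at least 1 bp, a share of 3.57% (95% Wilson interval 1.22 to 9.98, counting error only, and peaks of 1 locus are not independent). The share over all 65467 control peaks was 4.48%, and over control peaks within 100 kb of any protein-coding start site it was 3.65%, so the share at the 6 genes was near the background. Of the 6 genes, 2 had a region within 100 kb, Msx1 with 2 and Barx2 with 1, beside 20.2% of 21829 protein-coding genes. A region lay near 37.3% of genes with at least 15 control peaks, as Msx1, Msx2, Pitx1 and Barx2 have, and near 15.5% of genes with 6, as Isl1 and Lhx8 have. Msx2, Pitx1, Isl1 and Lhx8 had none, and 0 of their 52 control peaks overlapped a region, which allows a share of up to 5.77%. This limit lies above the background, so a lower share at these 4 genes was not detectable with 52 peaks.

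**Figure D1:**
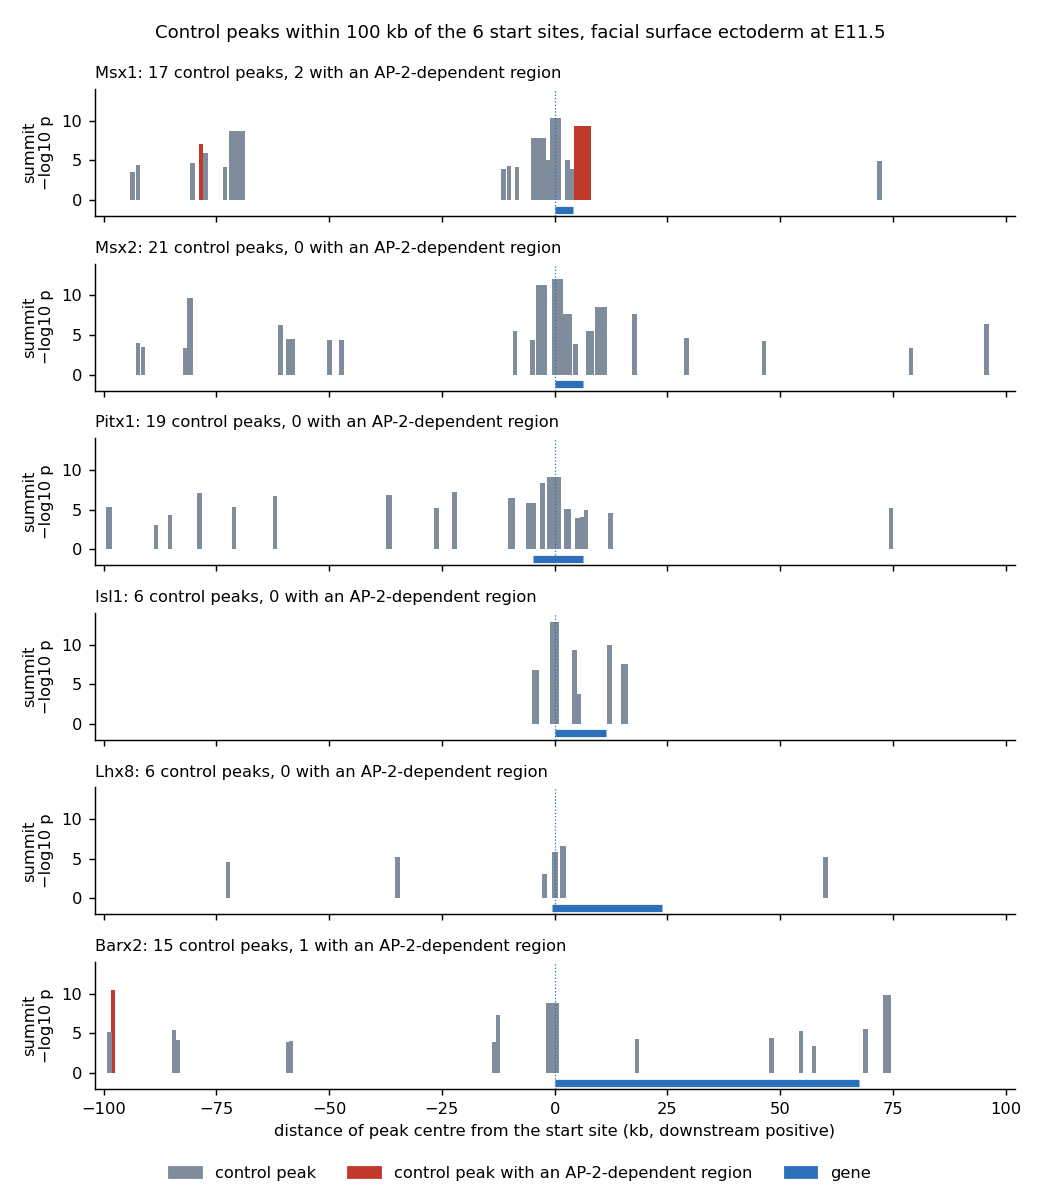
Control peaks within 100 kb of the 6 start sites, placed by the distance of their centre from the start site in kb (downstream positive), with the −log10 p of the summit as bar height. Peaks narrower than 1 kb are drawn 1 kb wide, blue lines are the genes, and red bars are the 3 control peaks that overlap an AP-2-dependent region, 2 at Msx1 and 1 at Barx2.

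Every one of the 6 genes had a control peak over its start site, as did 61.6% of all protein-coding genes. Control peaks centred within 5 kb of the start covered 7.92 kb at Msx1, 7.62 kb at Msx2, 5.89 kb at Pitx1, 4.68 kb at Isl1, 3.22 kb at Lhx8 and 2.85 kb at Barx2, where the median of all genes was 1.14 kb. These lengths exceeded those of 99.9%, 99.8%, 99.2%, 97.9%, 93.3% and 90.4% of genes, respectively. Long covered stretches were also found in lists of other developmental regulators. The median was 5.85 kb for Irx1 to Irx6 and 4.62 kb for Dlx1 to Dlx6, beside 5.29 kb for the 6 genes. It was 4.47 kb for 16 related genes named further on, which include Dlx1 to Dlx6. Of the 84 peaks, 11 were at least 2000 bp wide (13.1%, interval 7.47 to 21.9), beside 5.56% of all control peaks. Their median width was 692.5 bp, with quartiles of 431.5 and 1397 bp, beside 560 bp, with quartiles of 357 and 994 bp, for all control peaks. The strength of the peaks differed less from the background, since the median −log10 p at the summit was 5.24 beside 5.10, and 17.9% reached 8 beside 20.4%. The start site nearest to the peak was that of the member gene for 80 of the 84. Summits lay between genes in 37 peaks, in introns of non-coding transcripts in 20, in introns of protein-coding genes in 10, and in exons, untranslated regions included, in the others.

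**Figure D2:**
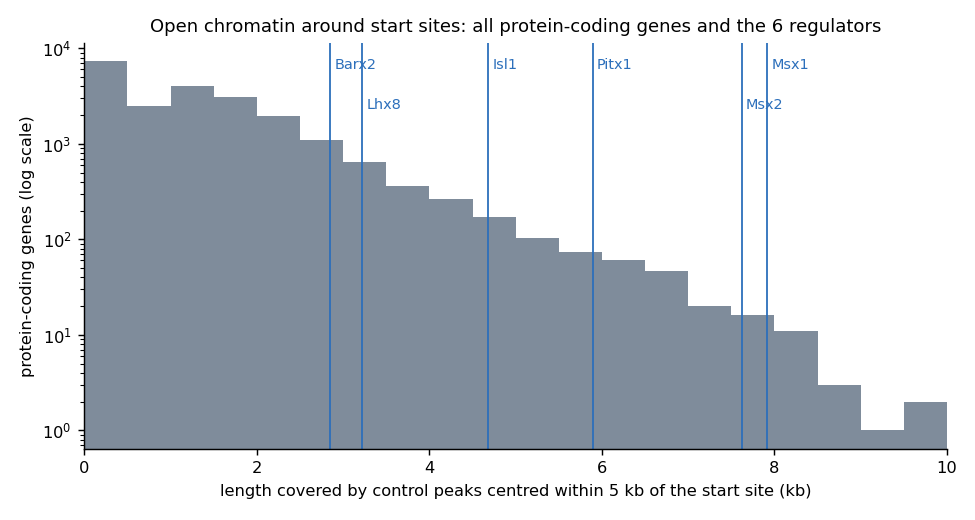
Number of protein-coding genes (log scale) by the length, in kb, that control peaks centred within 5 kb of the start site cover, in bins of 0.5 kb. Vertical lines mark the 6 genes, from 2.85 kb for Barx2 to 7.92 kb for Msx1, and 11 genes above 10 kb lie beyond the axis.

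Msx1 (ENSMUSG00000048450.10, chromosome 5, 37820485 to 37824583, minus strand) had 17 control peaks within 100 kb, more than 85.0% of genes, with 12 upstream and 5 downstream of its start. Their summit −log10 p ran from 3.59 to 10.3 with a median of 4.88. The highest value belonged to the promoter peak, which was 2443 bp wide and exceeded 90.5% of all control peaks. Of 65298 control peaks, 45617 had no start site within 5 kb. They held 4091 of the 13312 peaks with a summit value of at least 8, so peaks near start sites reached it more often. Ranks of promoter peaks, here and at the other genes, are therefore not ranks among promoters, which were not computed. A second broad peak of 3288 bp, with a summit value of 7.77, was centred 3.67 kb upstream. The widest peak, 3794 bp, began just beyond the 3′ end of the gene with its centre 6.07 kb downstream of the start, and at 9.36 it was the strongest Msx1 peak after the promoter. A separate group of 7 peaks lay between 70.5 and 93.6 kb upstream, led by a peak of 3519 bp and 8.73 over an exon of the lincRNA Gm20052.

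Both Msx1 regions lay between genes and inside a control peak. The downstream region (chr5:37817136-37817500) was 365 bp long, was centred 7.27 kb downstream of the start and filled 9.62% of the 3794 bp peak, with the 2 summits at the same base. Its area under the curve was 564 and its summit −log10 p was 5.72, above 78.3% and 69.1% of all regions when ranked by summit value and area, respectively. Within 100 bp of its summit the sequence was 70.6% G and C. The region held the palindrome with neither spacer, although the surrounding peak held 1 of each, and its capitals come from GCCNNNGGG and CCCNNNGGG, the nearest of which, CCCTGAGGG, lay 19 bp from the summit.

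The upstream Msx1 region (chr5:37902864-37903191) was 328 bp long and was centred 78.4 kb from the start, with an area of 345 and a summit value of 4.21, above 42.1% of all regions. It filled 56.5% of a control peak of 581 bp that had a summit value of 7.05 and ranked 5 of 17 at this gene. GCCTCGGGGC, a palindrome with a spacer of 4, lay 56 bp from the summit, and CCCCCAGGG, a match to CCCNNNGGG, lay 16 bp from it. The same 10 letters occur in the Msx1 promoter printed above, where no region was called. The upstream region also held GGAATG, the core of TEAD sites, 27 and 114 bp from the summit and TAATCC, the string bound by PITX proteins, 22 bp from it. The stronger peak of the lincRNA exon, nearer to Msx1, held no region.

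**Figure D3:**
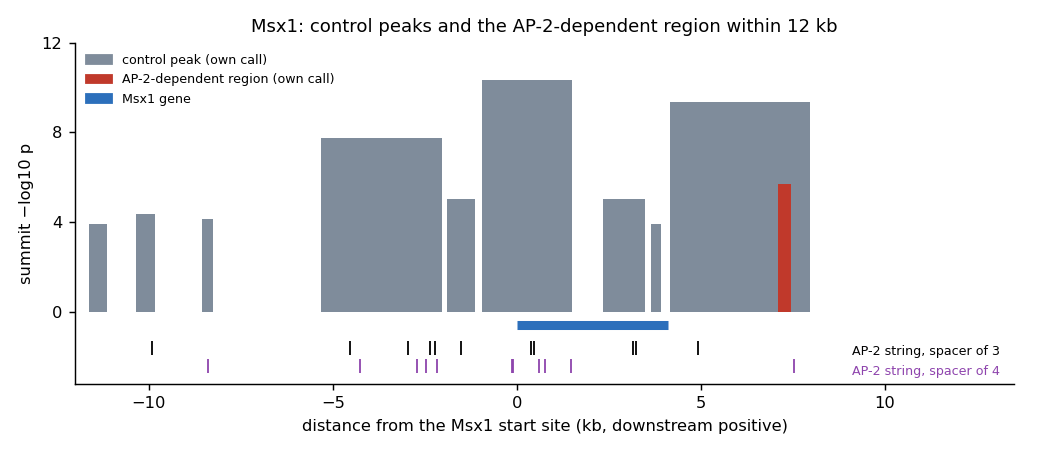
Control peaks (grey) and the AP-2-dependent region (red) within 12 kb of the Msx1 start site, as the −log10 p of the summit in their own calls, against the distance from the start in kb. Grey and red heights come from different calls and are not comparable. Ticks mark the AP-2 palindrome with a spacer of 3 (black) and of 4 (purple) inside control peaks, and the 365 bp region, at 7.27 kb, holds neither.

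Msx2 (ENSMUSG00000021469.9, chromosome 13, 53466884 to 53473074, minus strand), the paralog of Msx1, had more control peaks than the other genes, 21, which exceeded 92.2% of genes, and no region. Its peaks ran from 3.40 to 12.1 at the summit with a median of 4.59, and 11 lay upstream and 10 downstream. The promoter peak of 2379 bp was the strongest, above 96.1% of all control peaks, and was followed by a peak of 2482 bp and 11.3 centred 3.00 kb upstream. A peak of 2006 bp over the intron reached 7.63. The widest peak, 2793 bp with a summit value of 8.52, was centred 10.2 kb downstream, past the gene's 3′ end, as the widest peak of Msx1 also was. Beyond 5 kb the strongest was a peak of 1400 bp 80.8 kb upstream, with a value of 9.65, whose summit sequence is printed above. The nearest region lay 301.9 kb downstream in an intron of Ror2. Msx1 and Msx2 had similar lengths covered within 100 kb, 20.1 and 22.5 kb, with 2 regions and 0 regions, and the intervals of their shares, 11.8% (3.29 to 34.3) and 0% (0 to 15.5), overlapped.

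Pitx1 (ENSMUSG00000021506.7, chromosome 13, 55825051 to 55836192, minus strand) had 19 control peaks, more than 89.0% of genes, with 13 upstream and 6 downstream, and no region. The promoter peak was both the widest and the strongest, with 3137 bp and a summit value of 9.08, above 85.2% of all control peaks. It was followed by a peak of 1178 bp and 8.32 centred 2.76 kb upstream. Another peak, of 2092 bp and 5.79, was centred 5.25 kb upstream and covered a second, more upstream start of the gene. From 9.53 to 98.8 kb upstream, 10 peaks with summit values from 3.12 to 7.27 were strung out in the intron of Gm47071, an antisense transcript. The strongest of them lay 22.2 kb upstream. The nearest region was in the same antisense transcript, 157.8 kb upstream of Pitx1, and was weak, with an area of 254 and a summit value of 3.46, and the start site nearest to it was that of H2afy.

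Isl1 (ENSMUSG00000042258.13, chromosome 13, 116298281 to 116309689, minus strand) had few peaks but strong ones. Its 6 control peaks, more than at 37.4% of genes, all lay between 4.31 kb upstream and 15.5 kb downstream, and the next lay 107.9 kb away. The median summit value was 8.45, the highest of the 6 genes, with a range of 3.76 to 12.8. The promoter peak of 1982 bp exceeded 97.6% of all control peaks. An intronic peak 4.47 kb downstream reached 9.35, and peaks 12.2 and 15.5 kb downstream, past the 3′ end, reached 9.94 and 7.55. None of the 6 overlapped a region, and the nearest region lay 375.9 kb downstream, with an area of 287 and a summit value of 4.28.

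Lhx8 (ENSMUSG00000096225.7, chromosome 3, 154306294 to 154330659, minus strand) had the weakest promoter peak of the 6 genes and the least length covered within 100 kb, 4.83 kb. It also had 6 control peaks, with summit values from 3.15 to 6.57 and a median of 5.27. The peak over its start was 1396 bp wide and, at 5.83, was above 61.2% of all control peaks, while the strongest was a peak of 1272 bp centred 1.83 kb downstream. The remaining peaks lay 2.20, 34.9 and 72.4 kb upstream and 60.0 kb downstream, in an exon of Slc44a5, and the strongest of those beyond 5 kb reached 5.28. No region lay nearer than 472.9 kb. The summit ranges of Isl1 and Lhx8 overlapped, and 5 of the 6 Isl1 peaks exceeded every Lhx8 peak.

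Barx2 (ENSMUSG00000032033.11, chromosome 9, 31846044 to 31913462, minus strand), at 67.4 kb the longest of the 6 genes, had 15 control peaks, more than 79.8% of genes. Only the promoter peak lay within 5 kb of the start, and at 2848 bp and 8.84 it was the widest at the gene. The others, 8 upstream and 6 downstream, were mostly narrow, and the median width over all 15 was 451 bp. The strongest, 958 bp and 10.4, was centred 97.9 kb upstream and held the region. A peak of 1777 bp and 9.84, centred 73.7 kb downstream and past the 3′ end, held none.

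The Barx2 region (chr9:32011436-32011852) was the strongest of the 3 regions, with 417 bp, an area of 1389 and a summit value of 9.68, above 92.4% of all regions. It was centred 98.2 kb upstream, between genes, with its summit at the same base as that of the control peak, of which it filled 43.5%. GCCTCAGGC, the full GCCNNNGGC palindrome, lay 33 bp from the summit, and the overlapping pair CCCCAAGGG and CCCAAGGGG lay 72 and 71 bp from it. GGAATG occurred 138 bp and a CTCF string 163 bp from the summit. Repeats covered 9.45% of the sequence within 100 bp of the summit, and 0% at both Msx1 regions. The region lay near the limit of 100 kb, and its nearest start site was that of Barx2. Just inside the limit was a control peak at 98.7 kb upstream of Barx2 and at 98.8 kb upstream of Pitx1, and just outside were peaks at 119.5 kb upstream of Barx2 and 103.8 kb downstream of Pitx1.

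Regions at the 6 genes were found away from start sites. Distal peaks had no start site within 5 kb, counting only the 1 start site used per gene. The Pitx1 peak 5.25 kb upstream was thus distal, although it covered another start of that gene. With the most upstream start of each gene, 62 of the 84 peaks were distal. Of the 63 control peaks that were distal by the starts used, 3 overlapped a region (4.76%, interval 1.63 to 13.1), beside 5.75% of all such peaks. Of those within 5 kb of a start used, 0 of 21 did (0 to 15.5), beside 1.52%. Strong peaks, with a summit value of at least 8, held a region in 2 of 15 cases (13.3%, interval 3.74 to 37.9), beside 7.56%. Among strong peaks that were also distal, 2 of 7 held a region (28.6%, interval 8.22 to 64.1), beside 20.3% of all such peaks. The 2 with a region were the Msx1 peak at 6.07 kb and the Barx2 peak at 97.9 kb, and the others were the Msx1 peak at 70.5 kb, the Msx2 peaks at 10.2 and 80.8 kb, the Isl1 peak at 12.2 kb and the Barx2 peak at 73.7 kb. All these shares had intervals that held the background.

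**Figure D4:**
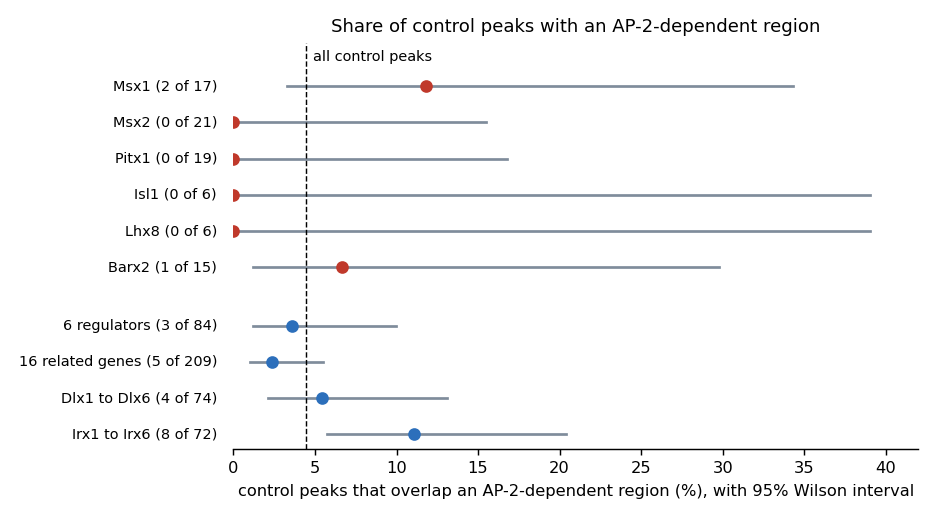
Percent of control peaks within 100 kb that overlap an AP-2-dependent region at each of the 6 genes (red) and in lists of genes (blue), with 95% Wilson intervals as lines and the share over all control peaks, 4.48%, dashed. The share is 3.57% for the 6 regulators, 2.39% for 16 related genes, 5.41% for Dlx1 to Dlx6 and 11.1% for Irx1 to Irx6. Only the Iroquois interval lies above the dashed line. Dlx1 to Dlx6 are among the 16 related genes and hold 4 of their 5 peaks with a region.

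The strings near the summits of the 84 peaks were close to the background for the AP-2 palindrome. GCCNNNGGC lay within 100 bp of the summit in 12 of 84 (14.3%, interval 8.37 to 23.3), beside 14.4% of all control peaks and 22.7% of all regions. By gene the counts were 3 at Msx1, 3 at Msx2, 2 at Pitx1, 0 at Isl1, 1 at Lhx8 and 3 at Barx2. The palindrome with a spacer of 4 was found in 15.5% beside 12.8%, and GCCNNNGGG in 27.4% beside 23.3%. CCCNNNGGG was found in 14 of 84 (16.7%, interval 10.2 to 26.1) beside 10.6%, and 7 of these 14 were at Msx1. All 3 control peaks that overlapped a region had it, but over all regions only 17.8% did, and it was among the strings added after the data had been seen. Of the 12 peaks with GCCNNNGGC 1 overlapped a region, and of the 72 without it 2 did, where the shares over all control peaks were 7.03% with and 4.04% without the string. In RefSeq promoters of 250 bases, the 4 strings occurred in 13.7%, 12.3%, 23.2% and 10.9%, respectively.

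Strings of other factors within 100 bp of the summit were compared in the same way. The PITX string TAATCC occurred in 9 of 84 peaks (10.7%, interval 5.74 to 19.1), beside 7.24% of all control peaks, and 4 of the 9 were at Pitx1 itself. GGAATG occurred in 15.5% beside 17.9%, the homeodomain core TAATTA in 3.57% beside 4.22%, and the CTCF string in 5.95% beside 8.09%. The p53 family string, as bound by p63, a regulator of stratified epithelium, was found in 1 of 84 peaks (1.19%, interval 0.210 to 6.44), at Msx2, beside 8.68% of all control peaks, which lay above the interval. Over whole peaks, a search added after the data had been seen, it was found in 14 of 84 (16.7%, interval 10.2 to 26.1), beside 21.5%, which lay inside the interval. Each match is a description of letters and not of binding, and 9 strings were compared.

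Other regulators were counted in the same way, and whether they act in this tissue was not tested. The 16 related genes, namely the paralogs Msx3, Pitx3, Isl2, Lhx6 and Barx1, the Dlx1 to Dlx6 genes, Pax9, Shh, Fgf8, Bmp4 and Edn1, had 209 control peaks, of which 5 overlapped a region (2.39%, interval 1.03 to 5.48). Dlx1 to Dlx6 held 4 of these 5 peaks. Over all control peaks the share was 4.48%. A region lay within 100 kb of 5 of the 16 genes. This stood beside 20.2% of all protein-coding genes and 37.3% of those with at least 15 control peaks, where the list had a median of 17. The neighbours Dlx1 and Dlx2 shared 2 regions, of which the stronger lay 5.30 kb downstream of Dlx2 with a summit value of 9.74. Dlx3 had 2 and Dlx4 had 3, of which 2 were shared, and Edn1, a ligand that patterns the lower jaw, had 1 at 54.5 kb downstream. The 6 Iroquois genes Irx1 to Irx6 had regions in 8 of 72 control peaks (11.1%, interval 5.74 to 20.4), and this interval overlapped that of the 6 regulators.

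The assignment was widened to the basal plus extension rule, in which a gene's domain reaches up to 1000 kb towards its neighbours. It gave 7 regions at 4 of the 6 genes, beside 16.1% of 21829 protein-coding genes with a region. The length of a domain depends on the distance to the neighbours, and no share for genes with domains of like length was computed. Besides the 3 above, these 7 were the Pitx1 region at 157.8 kb, the Isl1 region at 375.9 kb and 2 regions downstream of Barx2. The latter lay at 198.9 kb, with an area of 281, and at 318.2 kb, with an area of 692 and a GCCNNNGGC string. Msx2 and Lhx8 had no region under this rule either. Among 21829 protein-coding genes, 42 others shared the counts of Msx1, 17 control peaks and 2 regions. Barx2 shared its counts with 138 others, and Isl1 and Lhx8 each with 1122 others.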

How the data were processed

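ATAC-seq was performed by the authors on facial surface ectoderm at E11.5, with 2 control and 2 EDKO libraries. The authors trimmed adapters with NGmerge, used Bowtie2 (--very-sensitive, -k 10) for alignment to mm10 and SAMtools for sorting, and ran Genrich for peak calling with the options -j, -y, -r and -e chrM, which set its ATAC-seq mode, keep unpaired alignments and remove PCR duplicates and the mitochondrial chromosome. Libraries were combined in each call, so a value is shared by them. The values the authors deposited per peak were a score, made from the area under the curve, the area itself (also a score, at least 200.0 in each list), the −log10 p of the summit without adjustment, and the offset of the summit. The deposited q column was not filled, and no read count is in the lists. The EDKO-only list, coverage tracks and RNA were not analysed here, and 0 per-sample columns were left out.

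Coordinates are 1-based on GRCm38. Each of 21829 protein-coding genes of GENCODE release 21 was reduced to 1 start site, taken from the principal transcript (best APPRIS level, then the longest transcript, then the most upstream). Distances run from that site to the peak centre, and percentiles are the percent of genes or peaks with a lower value. Overlap was counted from 1 bp, and distal means more than 5 kb from every start site. Strings were matched on both strands within 100 bp of the summit, and GC and repeat content were taken over the same window, for the 65298 control peaks and 3072 regions on chromosomes. Shares, those of 0 included, have 95% Wilson intervals. The limit of 5.77% given for 0 of 52 peaks is instead 3 counts, and the Wilson limit for that share is 6.88%. Programs (Python 3.11.15, SciPy 1.17.1) were tested on simulated data. With no values per library, no replicate error and no test could be had.

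The named genes were the 6 regulators and 16 related genes. Each regulator was given with its promoter peak, strongest and widest control peak, every region within 100 kb and strongest distal peak without a region. The related genes were named as a list, with their regions where they had any. A further gene of that list is not reported here. Other peaks named were chosen after their values were seen. The members and lists were chosen with earlier results of these data known. The alternatives were a stricter area (500), windows of 50 and 250 kb, the most upstream start, the summit in place of the centre, a reciprocal overlap of 50%, other strings, and the basal plus extension rule (5 kb upstream, 1 kb downstream, at most 1000 kb).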

Additional observations from a re-analysis of the deposited data

How the results depend on the processing

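Of 35 alternative values for 7 results, 23 were counted as close and 12 as moved. Sizeable shifts could count as close, such as 59 control peaks for 84 and 2 regions for 3 with an area of at least 500. With a window of 50 kb the control peaks fell from 84 to 49, the regions from 3 to 1, the genes with a region from 2 to 1 and the distal share of the peaks from 75% to 59.2%. With 250 kb there were 169 control peaks and 5 regions. The basal plus extension rule gave 7 regions and 4 genes. An overlap of 50% of both intervals lowered the share of peaks with a region from 3.57% to 1.19%, beside 2.87% of all control peaks. Searching whole peaks raised the share with GCCNNNGGC from 14.3% to 36.9%, beside 32.4% of all control peaks, and that with the p53 family string from 1.19% to 16.7%, beside 21.5%. Any of the 4 AP-2 strings gave 50%, beside 42.3%. The last 2 searches were chosen after seeing the data. An area of at least 500 left 59 control peaks, 2 regions and 3.39%, beside 2.46%. No paired analysis was possible because the libraries of a group were combined in each call, and for the same reason no library could be left out. The intervals cover counting error only, and the depth behind a peak is unknown.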
